A study of Mus musculus with 16 samples.

Results

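The axon guidance genes are the ligands and receptors by which growing axons, migrating cells and blood vessels read their surroundings. They were taken here by gene symbol as the semaphorins of classes 3 to 7, the plexins, the neuropilins, the netrins with Dcc and the Unc5 receptors, the Slits and Robos, and the ephrins and Eph receptors. The gene table of 52997 symbols held 68 of them, 34 ligand genes and 34 receptor genes, and 48 had at least 10 reads in at least 4 of the 16 libraries and were tested (27 ligand and 21 receptor genes). They were measured in mesenchymal stromal cells (mSC), which form the connective tissue between muscle fibres and were sorted from hindlimb muscle of C57BL/6 mice at 8 weeks of age. The mice received an intraperitoneal injection of CGRP, a neuropeptide of sensory nerve endings, and cells were taken after 4 h or after 8 h, or received phosphate-buffered saline (PBS) with cells taken at the same times. Each of the 4 groups had 4 replicate libraries, each made from sorted cells by oligo(dT) priming and PCR. Every group thus carried an injection, and no uninjected mice are analysed here. The labels do not state the dose, the surface markers of the sort or whether a replicate was a single mouse or a pool.

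Semaphorins act mainly through plexins, and most secreted class 3 semaphorins need a neuropilin as the binding subunit beside the plexin. Netrins attract through Dcc and repel through Unc5 receptors, Slits act on Robo receptors, and membrane-bound ephrins signal on contact with Eph receptor kinases, in both the receptor cell and the ligand cell. Outside the nervous system the same families act in vessels, in cell migration and in tissue boundaries, and stromal cells are a known source of several of the secreted ligands. The CGRP receptor couples to cyclic AMP, whose transcription factor CREB binds the cyclic AMP response element.

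Gene totals ran between 6373713 and 10011920 counts per library, of which the 68 genes took 0.1249% to 0.1768%. Libraries had between 21138 and 25579 genes with a read, and 4 of them stood above the rest (replicate 3 of CGRP at 4 h, replicate 4 of PBS at 4 h, and replicates 1 and 4 of PBS at 8 h). The predicted gene Gm10800 took 1.77% to 2.446% of counts in replicates 1, 2 and 3 of PBS at 8 h, against 0.5357% to 1.011% in the other 13 libraries. Results that lose their call without these libraries are given both ways. Stromal markers carried 141000 to 187000 CPM (read counts scaled to library size) in every library, so the label of the cells matched their RNA. The sums were lower after CGRP at both times (145000 to 155000 CPM after CGRP and 163000 to 187000 CPM after PBS at 4 h, 141000 to 158000 CPM after CGRP and 164000 to 176000 CPM after PBS at 8 h). Gsn made most of these sums, with means of 96300 CPM after CGRP and 108800 CPM after PBS at 4 h. Its means at 8 h were 101700 CPM after CGRP and 117100 CPM after PBS. Of the 10 stromal markers, 5 fell and 1 rose at 4 h, and 2 fell and 1 rose at 8 h. Markers of other cells were low: lymphocyte markers summed to at most 2.12 CPM, satellite cell markers to at most 1.14 CPM with Myf5 at 0 reads, and macrophage markers to at most 9.28 CPM. Endothelial markers summed to 80.4 to 144 CPM, of which Tek made 92.0% to 99.0%, while Pecam1 had 103 reads and Cdh5 25 reads in all 16 libraries together. Schwann cell and glia markers summed to 6.76 to 10.9 CPM after CGRP and 10.7 to 18.9 CPM after PBS at 4 h (1 of 3 tested fell), and myofibre markers to 97.2 to 145 CPM after CGRP and 140 to 226 CPM after PBS at 8 h (1 of 6 fell). Erythroid markers varied by library, at 1.08 to 47.5 CPM after CGRP and 1.28 to 44.2 CPM after PBS at 4 h. At 8 h they were at 0.968 to 44.5 CPM after CGRP and 1.53 to 3.03 CPM after PBS, the group without a high library.

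Among the axon guidance genes, the RNA was concentrated in a few. Per kilobase of annotated exon, the ligand gene Slit3 averaged 39.7 CPM and the co-receptor gene Nrp1 39.0 CPM over the 16 libraries, followed by Sema3c at 22.6 CPM, Ntn1 at 19.6 CPM, Plxnb2 at 15.8 CPM and Sema3b at 12.7 CPM. The levels of Slit3 and Nrp1 did not differ beyond the range over libraries. Without division by length, 5 genes averaged at least 100 CPM, 16 between 10 and 100 CPM and 27 under 10 CPM. Nrp1, Slit3, Sema3c and Ntn1 together held 58.2% of the summed CPM of all 68 genes, between 55.8% and 60.6% by library. The lowest genes that passed the read filter were Sema5b (at least 10 reads in 4 libraries), Plxnb1 (in 5) and Sema4d (in 6), and the nearest outside it were Efnb3, Epha2, Plxna4 and Sema4g, each with at least 10 reads in 3 libraries. Sema7a reached 10 reads in 3 CGRP and 1 PBS libraries at 4 h and in 3 CGRP and 0 PBS libraries at 8 h, so it passed the filter mainly through the CGRP libraries. The 20 untested genes had 3 to 96 reads over all 16 libraries, and they included the netrin receptor gene Dcc with 28 reads. The others were Efna3, Efnb3, Epha2, Epha5, Epha6, Epha8, Epha10, Ephb1, Ntn5, Plxna4, Plxnb3, Robo3, Robo4, Sema3g, Sema4f, Sema4g, Slit1, Unc5c and Unc5d.

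**Figure D1:**
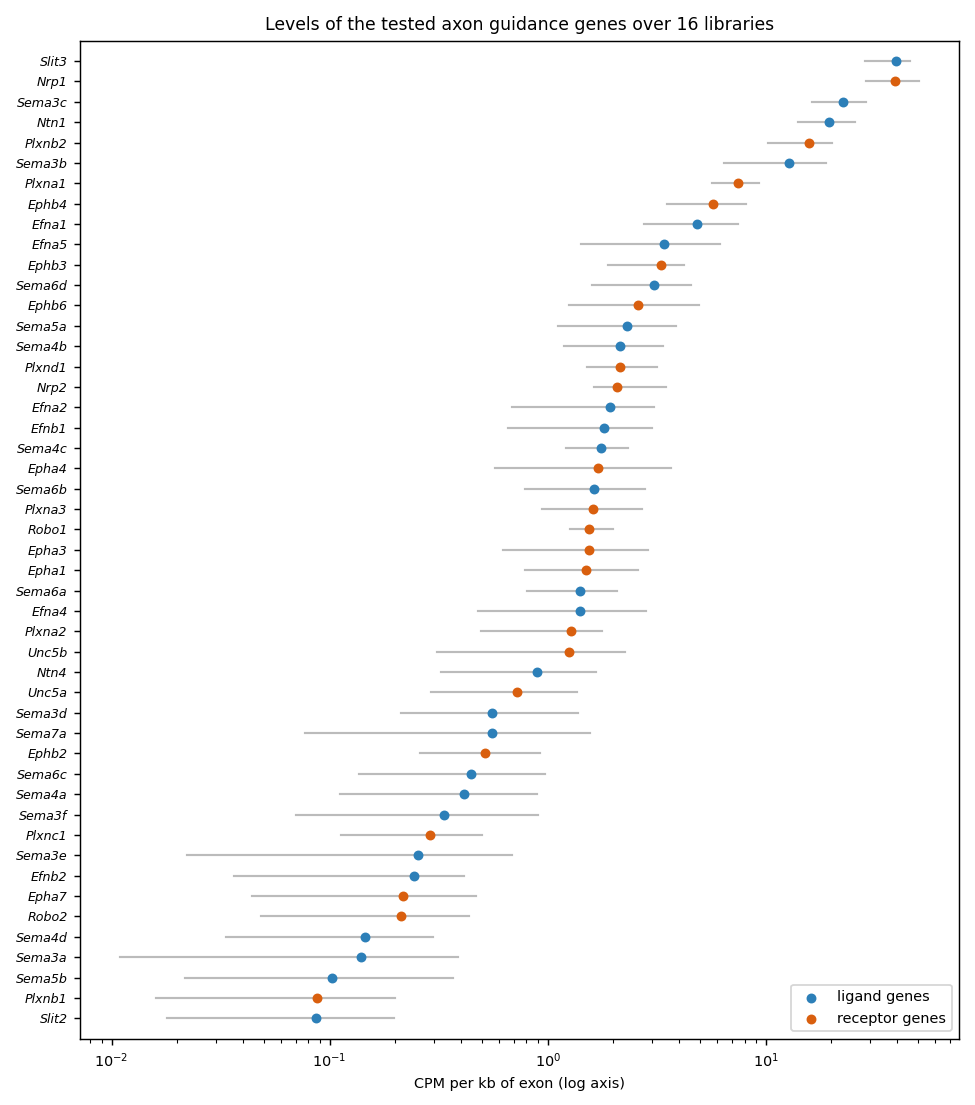
Mean level of each of the 48 tested axon guidance genes over the 16 libraries, in CPM per kilobase of exon on a log axis, with ligand genes in blue and receptor genes in orange. Grey lines run to the lowest library above 0 and the highest library, and libraries at 0 are not drawn. Slit3 at 39.7 and Nrp1 at 39.0 lead the order.

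The promoters were read for the cyclic AMP response element, TGACGTCA, and for its shorter form, TGACG, on either strand. The windows run from 250 bases before to 50 bases after each RefSeq start (GRCm38.p6). Of the tested axon guidance genes 43 had a window. The full element was in 0 of these 43, against 3.51% of the 10111 tested genes with a window and 1.79% of all 32851 windows. TGACG, which every full element also holds, was in 7 of the 43 (Efnb1, Efnb2, Epha4, Ephb3, Sema3d, Sema5a and Sema7a), against 34.9% of the tested genes and 20.8% of all windows. The windows of Epha4 and Sema5a, the genes with the shorter form among those lower after CGRP at both times, and of Sema7a, the gene with the highest fold change after CGRP, are shown 5′ to 3′ along each gene's own strand, with capitals marking TGACG or its reverse complement CGTCA.
Epha4, chr1:77515039-77515338, reverse strand: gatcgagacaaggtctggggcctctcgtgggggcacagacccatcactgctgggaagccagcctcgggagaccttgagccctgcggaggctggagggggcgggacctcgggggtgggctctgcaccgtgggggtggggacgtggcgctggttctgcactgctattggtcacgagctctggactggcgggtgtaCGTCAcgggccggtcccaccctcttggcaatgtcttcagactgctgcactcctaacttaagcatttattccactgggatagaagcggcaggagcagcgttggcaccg
Sema5a, chr15:32244563-32244862, forward strand: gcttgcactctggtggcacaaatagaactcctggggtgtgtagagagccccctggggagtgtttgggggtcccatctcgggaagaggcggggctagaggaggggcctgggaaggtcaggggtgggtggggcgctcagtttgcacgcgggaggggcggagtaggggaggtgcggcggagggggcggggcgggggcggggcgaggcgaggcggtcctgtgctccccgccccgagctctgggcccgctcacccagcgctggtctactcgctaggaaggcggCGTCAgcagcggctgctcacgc
Sema7a, chr9:57939862-57940161, forward strand: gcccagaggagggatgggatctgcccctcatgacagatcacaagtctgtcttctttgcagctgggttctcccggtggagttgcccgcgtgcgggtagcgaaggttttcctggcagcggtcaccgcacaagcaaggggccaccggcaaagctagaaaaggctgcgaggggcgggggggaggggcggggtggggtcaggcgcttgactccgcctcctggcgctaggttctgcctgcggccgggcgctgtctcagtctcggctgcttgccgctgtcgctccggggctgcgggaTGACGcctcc
The capitals begin 57 bases before the start in Epha4, and 28 and 40 bases after it in Sema5a and Sema7a. Such a match is a description of letters, and binding was not measured here. Nrp1 and Plxnb2, the other genes lower at both times, had windows without either form.

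CGRP against PBS at 4 h asked which of these genes differed at the earlier time. The summed CPM of the 68 genes was 1330 to 1510 after CGRP, against 1640 to 1760 after PBS, so the groups did not overlap. Of the 48 tested genes, 11 fell and 2 rose, at a Benjamini-Hochberg adjusted p under 0.05 over 14236 genes (edgeR quasi-likelihood test, the test behind every adjusted p below unless another is named). That is 27.1% of the 48, beside 15.7% of all genes tested, and by direction 22.9% lower beside 7.72%, and 4.17% higher beside 7.99%. The median log2 fold change was -0.25 over the 48 genes and 0.01 over all genes, with 31 of 48 below 0. Receptor genes held 7 of the 11 that fell and none of those that rose (1 receptor gene was higher at an unadjusted p under 0.05, and DESeq2 also called 1 higher). Without the 4 libraries with most genes, 12 fell and 0 rose. In bulk libraries such as these, fewer cells of a type and less RNA per cell cannot be told apart. The summed stromal markers were lower in the same libraries (5 of the 10 markers fell and 1 rose), as were the pericyte and smooth muscle markers, at 32 to 69 CPM after CGRP and 71.5 to 136 CPM after PBS, and their part in these results was not tested. Cspg4 made 55.3% to 84.4% of the pericyte sum, and the defining pericyte gene Rgs5 had 30 reads in all.

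The same comparison at 8 h asked which genes differed at the later time. The summed CPM of the 68 genes was 1220 to 1450 after CGRP, against 1700 to 1800 after PBS, again without overlap. Of the 48 genes, 6 fell and 0 rose, or 12.5% of the 48 lower and 0 higher. Over all genes 3.42% were called lower, 4.97% higher and 8.39% in either direction. At an unadjusted p under 0.05, 15 of the 48 differed, 2 of them higher, beside 3186 of all 14236 genes in either direction. DESeq2 called 1 of the 48 higher, Sema7a. The median log2 fold change was -0.27 over the 48 genes and -0.01 over all genes, with 33 of 48 below 0. Epha4, Nrp1, Plxnb2 and Sema5a fell at both times. Without the 4 libraries with most genes 3 fell, and without the 3 PBS libraries rich in Gm10800, an alternative chosen after the data were seen that leaves 1 PBS library at 8 h, assumed to vary like the other groups, 2 fell. Calls over all genes were 192 and 149 in these alternatives, against 1195 with all libraries. Stromal markers were again lower in sum (2 of 10 fell and 1 rose), and the pericyte sum overlapped at 100 to 133 CPM after CGRP and 116 to 172 CPM after PBS. Their part was not tested.

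**Figure D2:**
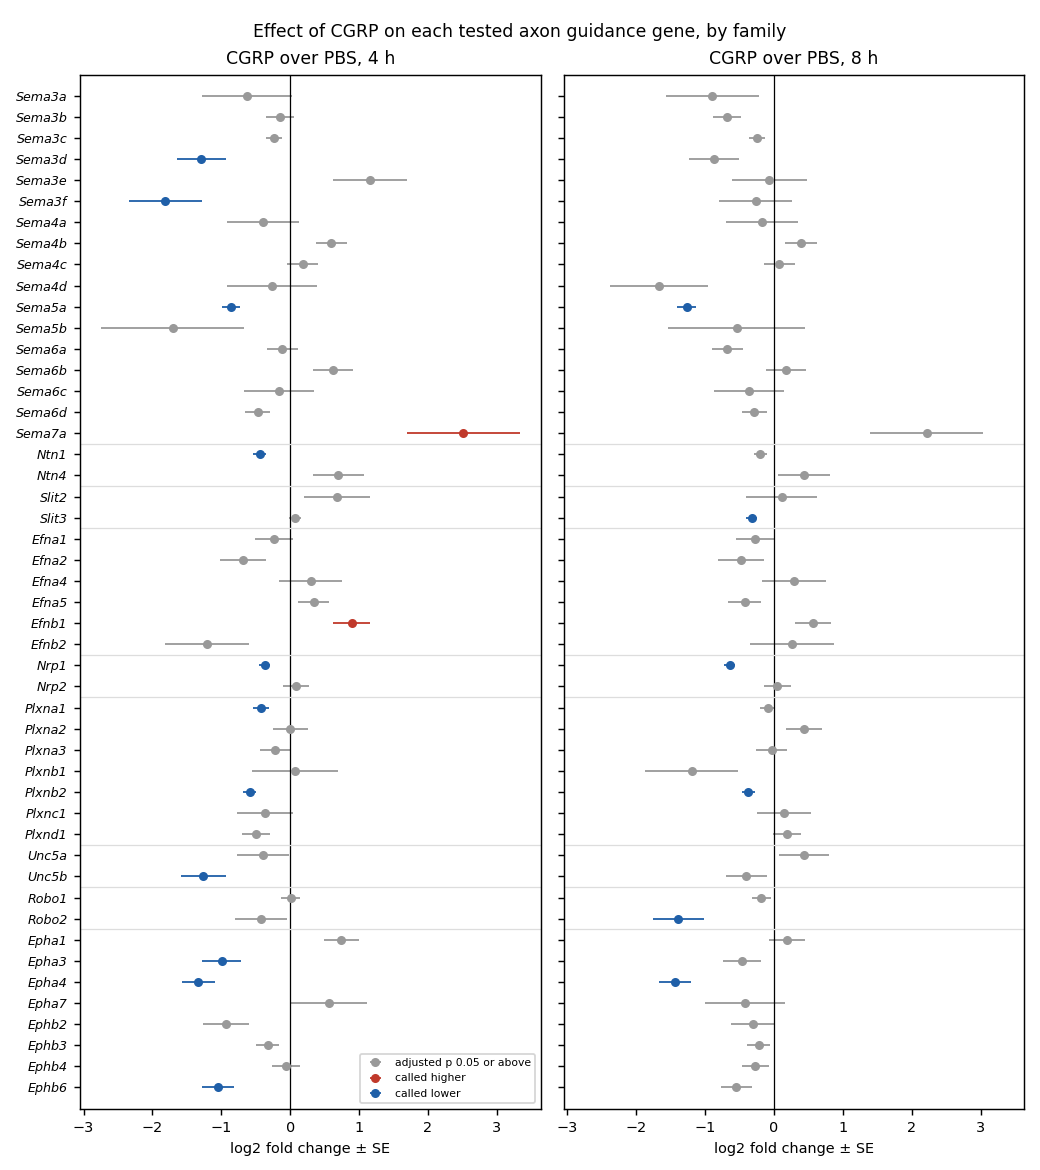
Log2 fold change of CGRP over PBS with its SE for the 48 tested genes at 4 h (left) and 8 h (right), ordered by family, with genes called higher in red, called lower in blue and the others in grey. At 4 h 11 genes are blue and 2 red, and at 8 h 6 are blue and 0 red.

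Among the ligand genes, 4 of 27 fell and 2 rose at 4 h, and 2 fell and 0 rose at 8 h (2 higher at an unadjusted p under 0.05, and 1 called higher by DESeq2). At 4 h that is 14.8% lower beside 7.72% of all genes and 7.41% higher beside 7.99%. At 8 h it is 7.41% lower beside 3.42% of all genes and 0 higher beside 4.97%, resting on 2 genes. In either direction the 8 h share of 7.41% was near the 8.39% of all genes. Sema5a encodes a membrane semaphorin with thrombospondin repeats and lies at chr15:32244810-32696341 on the forward strand (GRCm38, as are all gene positions here). It had 26.7, 34.2, 24.6 and 31.1 CPM after CGRP at 4 h, against 61.8, 45.3, 50.7 and 54.4 CPM after PBS at 4 h. Its 8 h values were 20.8, 29.1, 29.6 and 26.5 CPM after CGRP, against 66.0, 72.4, 59.3 and 57.8 CPM after PBS. Every CGRP library lay below every PBS library at both times. Sema5a fell by 0.86 ± 0.13 on the log2 scale at 4 h (adjusted p = 1.28e-04) and by 1.27 ± 0.13 at 8 h (adjusted p = 4.63e-06), the smallest adjusted p among the 48 genes at each time (errors of log2 values are SE). The 8 h effect minus the 4 h effect was -0.41 ± 0.19 (adjusted p = 0.327). Both calls held under every alternative run, without any library and without the doubted libraries.

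The secreted class 3 semaphorin genes Sema3d and Sema3f were called at 4 h and not at 8 h. Sema3d (chr5:12383385-12588948, forward strand) had 2.62, 3.05, 3.39 and 3.23 CPM after CGRP at 4 h, against 6.10, 11.9, 4.36 and 7.57 CPM after PBS. The CGRP libraries lay close together below a PBS group with a wide spread. It fell by 1.29 ± 0.35 on the log2 scale (adjusted p = 0.0151), and without replicate 2 of PBS the value was -0.97 with an adjusted p of 0.0888. At 8 h Sema3d averaged 3.03 ± 1.24 CPM after CGRP and 5.56 ± 2.27 CPM after PBS (SD, n = 4 each), with overlapping groups and a log2 fold change of -0.87 ± 0.36 (adjusted p = 0.147). Sema3f, whose product prefers neuropilin-2, lies at chr9:107681500-107710475 on the reverse strand. It had 1.11, 0.366, 1.25 and 0.807 CPM after CGRP at 4 h, against 4.68, 2.48, 3.08 and 2.49 CPM after PBS, from 30 and 105 reads in all. These few reads did not overlap between the groups. Sema3f fell by 1.81 ± 0.53 on the log2 scale (adjusted p = 0.0210), and the call was lost without replicate 2 or 4 of CGRP or replicate 1 of PBS (-1.56, -1.77 and -1.57, adjusted p = 0.0633, 0.0571 and 0.0705). At 8 h it averaged 1.32 ± 0.944 CPM after CGRP and 1.55 ± 0.583 CPM after PBS.

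Sema7a encodes a lipid-anchored semaphorin that binds plexin-C1 and integrins, and lies at chr9:57940112-57962865 on the forward strand. It had 0.303, 2.56, 5.14 and 4.30 CPM after CGRP at 4 h, against 0.284, 1.13, 0.642 and 0 CPM after PBS. Its 8 h values were 2.58, 4.09, 0.620 and 4.93 CPM after CGRP, against 0.254, 0.875, 1.21 and 0.268 CPM after PBS. At each time 3 CGRP libraries stood above all PBS libraries and the remaining CGRP library lay among them. Having passed the read filter mainly through the CGRP libraries where it was high, Sema7a rose at 4 h by a log2 fold change of 2.51 ± 0.82 (adjusted p = 0.0428), from 97 reads after CGRP and 18 after PBS. That call rested on few libraries: it was lost without replicate 2, 3 or 4 of CGRP (2.59, 2.14 and 2.30, adjusted p = 0.0597, 0.106 and 0.106) and without replicate 1, 3 or 4 of PBS (2.34, 2.62 and 2.07, adjusted p = 0.108, 0.0741 and 0.0905). It was also lost without the 4 libraries with most genes (1.69, adjusted p = 0.205) and with only the groups compared (2.501, adjusted p = 0.0755). Its log2 fold change at 8 h was 2.21 ± 0.82 (adjusted p = 0.104).

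The other semaphorin genes did not pass the test at either time in the fit reported. Sema3c, the most abundant of them, averaged 158 ± 29.2 CPM after CGRP and 186 ± 20.3 CPM after PBS at 4 h, and 138 ± 12.7 CPM after CGRP and 163 ± 13.7 CPM after PBS at 8 h (SD, n = 4 each). Its log2 fold changes were -0.24 ± 0.11 and -0.24 ± 0.12 (adjusted p = 0.176 and 0.215). Sema3b, also secreted, was at the threshold at 8 h, with 38.1 ± 9.06 CPM after CGRP and 61.2 ± 21.0 CPM after PBS and a log2 fold change of -0.68 ± 0.21 (adjusted p = 0.05001, just above the threshold). It was called with DESeq2, upper-quartile scaling, no filter and the replicate block. With only the groups compared, or without the 4 libraries with most genes, it was not called. Over the 16 libraries Sema6d averaged 32.6 CPM, Sema6a 12.4, Sema4b 12.2, Sema4c 8.09 and Sema6b 6.49. Sema6c averaged 2.64 CPM, Sema3e 2.36, Sema4a 2.25, Sema3a 1.93, Sema4d 1.11 and Sema5b 0.728. Of these, Sema6b had all 4 CGRP libraries above all PBS libraries at 4 h (6.66 to 9.15 CPM after CGRP and 3.12 to 6.39 CPM after PBS, log2 fold change 0.62 ± 0.29, adjusted p = 0.164). Sema4b was 15.9 ± 3.18 CPM after CGRP and 10.5 ± 3.30 CPM after PBS at 4 h (log2 fold change 0.60 ± 0.23, adjusted p = 0.0790), with overlapping libraries. The replicate block called it. Sema6a was 9.08 ± 1.75 CPM after CGRP and 14.6 ± 3.24 CPM after PBS at 8 h, with overlapping libraries (log2 fold change -0.68 ± 0.22, adjusted p = 0.0618). DESeq2, no filter and only the groups compared called it at 8 h. Sema6d at 4 h (-0.47 ± 0.18, adjusted p = 0.0877) was called with no filter and with only the groups compared.

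The secreted ligand genes Ntn1 and Slit3 differed in when they were called. Ntn1 encodes netrin-1 and lies at chr11:68209364-68400823 on the reverse strand. It had 101, 101, 88.4 and 95.5 CPM after CGRP at 4 h, against 123, 151, 121 and 129 CPM after PBS. The 8 h libraries had 118, 122, 139.9 and 114 CPM after CGRP, against 133, 143, 129.7 and 160.5 CPM after PBS. The groups were apart at 4 h and overlapped at 8 h. Ntn1 fell by 0.44 ± 0.09 on the log2 scale at 4 h (adjusted p = 0.00254), a call that held without any single library, and at 8 h the value was -0.20 ± 0.09 (adjusted p = 0.208). The other tested netrin gene, Ntn4, averaged 3.34 CPM over the 16 libraries and was not called.

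Slit3, at chr11:35121224-35708507 on the forward strand, had 255, 275, 279 and 264 CPM after CGRP at 4 h, against 240.4, 255, 262 and 266 CPM after PBS. Later, at 8 h, Slit3 had 173, 228, 199.8 and 179.9 CPM after CGRP, against 253, 229.6, 231 and 265 CPM after PBS. The groups overlapped at 4 h and were just apart at 8 h. The log2 fold change was 0.07 ± 0.08 at 4 h (adjusted p = 0.659), and Slit3 fell by 0.33 ± 0.08 at 8 h (adjusted p = 0.0192). The 8 h effect minus the 4 h effect was -0.39 ± 0.12, with the smallest adjusted p of the 48 genes in that contrast, 0.111. The 8 h call was lost without replicate 1 or 4 of CGRP (-0.27 and -0.29, adjusted p = 0.0823 and 0.0734), without replicate 1 or 4 of PBS (-0.31 and -0.28, adjusted p = 0.0577 and 0.0786), without the 4 libraries with most genes (-0.24, adjusted p = 0.291) and without the 3 libraries rich in Gm10800 (-0.44, adjusted p = 0.135). Slit2 averaged 2.21 CPM over the 16 libraries and was not called.

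Of 6 ephrin genes tested, 1 rose at 4 h and 0 fell. That is 16.7% called, beside 15.7% of all genes in either direction and 7.99% higher, near the background for so few genes. Efnb1, a transmembrane ephrin that binds EphB receptors, lies at chrX:99136130-99148991 on the forward strand. It had 7.77, 7.93, 5.39 and 5.78 CPM after CGRP at 4 h, against 2.27, 3.40, 5.13 and 3.63 CPM after PBS. Its 8 h values were 9.07, 9.46, 10.4 and 5.85 CPM after CGRP, against 5.09, 8.02, 5.16 and 5.36 CPM after PBS. The 4 h groups did not overlap, with the nearest libraries at 5.39 and 5.13 CPM, and the 8 h groups did. Efnb1 rose by a log2 fold change of 0.89 ± 0.27 at 4 h (adjusted p = 0.0257), and at 8 h the value was 0.57 ± 0.26 (adjusted p = 0.192). The 4 h call was lost without replicate 1 or 2 of CGRP (0.81 and 0.81, adjusted p = 0.0733 and 0.0685), without replicate 1, 2 or 4 of PBS (0.74, 0.86 and 0.89, adjusted p = 0.0843, 0.0645 and 0.0526) and without the 4 libraries with most genes (0.98, adjusted p = 0.0543), and with only the groups compared (0.88, adjusted p = 0.0544). Efna5 averaged 13.8 CPM over the 16 libraries, Efna1 8.85, Efna2 4.10, Efna4 2.25 and Efnb2 1.67. In Efnb2 every CGRP library lay below every PBS library at 4 h (0.251 to 1.83 CPM after CGRP and 1.87 to 2.84 CPM after PBS), and the test was not passed (log2 fold change -1.21 ± 0.61, adjusted p = 0.201).

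**Figure D3:**
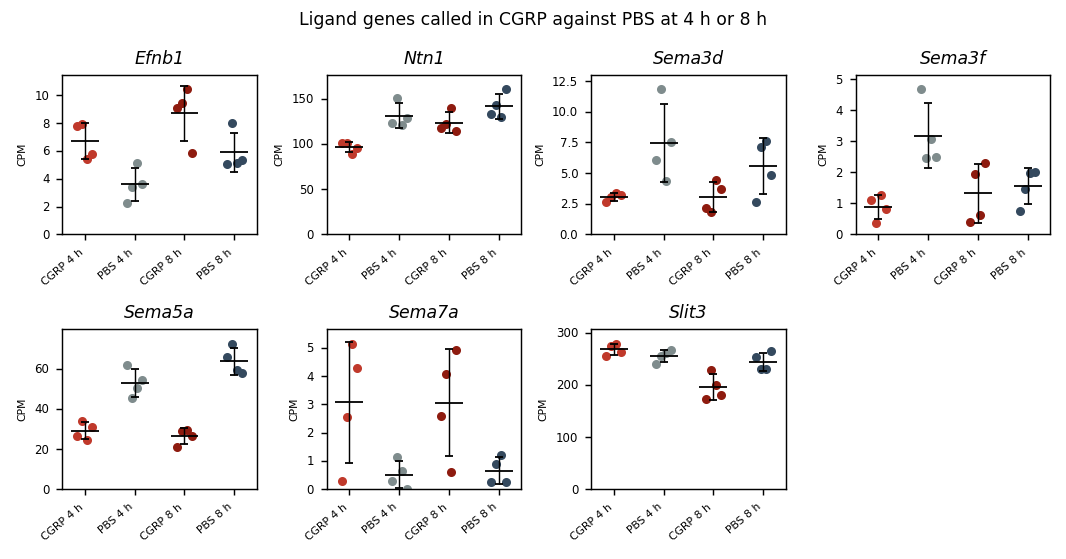
CPM of the 7 ligand genes called in CGRP against PBS at 4 h or 8 h, 1 point per library, with the mean and SD of each group of 4. In Sema5a both CGRP groups, at 20.8 to 34.2 CPM, sit below both PBS groups, at 45.3 to 72.4 CPM, and in Sema7a 1 CGRP library at each time lies among the PBS libraries.

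Among the receptor genes, 7 of 21 fell at 4 h (33.3%, beside 7.72% of all genes) and 4 fell at 8 h (19.0%, beside 3.42%). Nrp1 encodes neuropilin-1, which binds class 3 semaphorins and VEGF, and lies at chr8:128358604-128503363 on the forward strand. It had 285, 330.2, 344 and 319 CPM after CGRP at 4 h, against 416, 466, 381 and 390.5 CPM after PBS. In the 8 h groups Nrp1 had 283, 322, 335 and 299.5 CPM after CGRP, against 496, 460.0, 496 and 487 CPM after PBS. No CGRP library reached a PBS library at either time. Nrp1 fell by 0.37 ± 0.08 on the log2 scale at 4 h (adjusted p = 0.00318) and by 0.65 ± 0.08 at 8 h (adjusted p = 4.37e-05). The 8 h effect minus the 4 h effect was -0.27 ± 0.12 (adjusted p = 0.263), and both calls held under every alternative run. Endothelial cells also express Nrp1; the endothelial marker sum was 94.7 to 117 CPM after CGRP and 81.0 to 144 CPM after PBS at 4 h, and 80.4 to 105 CPM after CGRP and 108 to 130 CPM after PBS at 8 h. These sums were nearly all Tek, with Pecam1 and Cdh5 at 103 and 25 reads over the 16 libraries. Nrp2, the other neuropilin gene, averaged 24.6 CPM over the 16 libraries, with log2 fold changes of 0.08 ± 0.19 at 4 h and 0.05 ± 0.19 at 8 h (adjusted p = 0.832 and 0.927).

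Plexin genes called were Plxnb2, a receptor for class 4 semaphorins, and Plxna1, a signalling partner of neuropilins and a receptor for Sema6d. Plxnb2 (chr15:89155549-89180788, reverse strand) had 79.3, 100, 99.7 and 85.8 CPM after CGRP at 4 h, against 148, 142, 120.3 and 138 CPM after PBS. At 8 h it had 101, 124, 118 and 109.8 CPM after CGRP, against 144, 155, 142 and 147 CPM after PBS. The groups were apart at both times. Plxnb2 fell by 0.59 ± 0.09 on the log2 scale at 4 h (adjusted p = 1.65e-04) and by 0.38 ± 0.09 at 8 h (adjusted p = 0.0141). The 8 h call was lost without replicate 1 of CGRP (-0.32, adjusted p = 0.0620), without the 4 libraries with most genes (-0.39, adjusted p = 0.118) and without the 3 rich in Gm10800 (-0.38, adjusted p = 0.281). Plxna1 (chr6:89316314-89362620, reverse strand) had 51.5, 65.9, 59.2 and 52.0 CPM after CGRP at 4 h, against 84.7, 72.7, 71.3 and 77.9 CPM after PBS. These groups did not overlap either. Plxna1 fell by 0.42 ± 0.11 on the log2 scale (adjusted p = 0.0101), and at 8 h, with 65.9 ± 5.92 CPM after CGRP and 70.1 ± 9.61 CPM after PBS (SD, n = 4 each), the value was -0.09 ± 0.11 (adjusted p = 0.703). Of the 9054 exon bases of Plxna1, 970 overlap the gene Gm26811, whose reads cannot be told apart in libraries that do not mark the strand. The uncalled plexin genes averaged 22.02 CPM (Plxna2), 15.7 CPM (Plxnd1), 12.7 CPM (Plxna3), 2.42 CPM (Plxnc1) and 0.840 CPM (Plxnb1) over the 16 libraries.

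Eph receptor kinase genes held 3 of the 4 h calls and 1 of the 8 h calls, among 8 tested, or 37.5% lower at 4 h beside 7.72% of all genes and 12.5% lower at 8 h beside 3.42%. Epha4, which binds ephrins of both classes, lies at chr1:77367185-77515088 on the reverse strand. It had 6.56, 5.37, 8.65 and 5.65 CPM after CGRP at 4 h, against 15.3, 14.4, 13.1 and 23.1 CPM after PBS. Epha4 at 8 h had 8.76, 8.93, 11.7 and 4.62 CPM after CGRP, against 19.8, 21.0, 29.6 and 23.2 CPM after PBS. All 8 CGRP libraries lay below all 8 PBS libraries. Epha4 fell by 1.33 ± 0.24 on the log2 scale at 4 h (adjusted p = 6.04e-04) and by 1.44 ± 0.23 at 8 h (adjusted p = 6.53e-04), with a difference between times of -0.11 ± 0.34 (adjusted p = 0.927). Without the 3 PBS libraries rich in Gm10800 the 8 h value was -1.43 with an adjusted p of 0.0622.

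Ephb6, a kinase-inactive Eph receptor (chr6:41605482-41620509, forward strand), had 8.07, 5.98, 6.27 and 4.71 CPM after CGRP at 4 h, against 18.7, 10, 11.0 and 12.7 CPM after PBS. At 8 h it had 7.73, 8.39, 7.03 and 9.24 CPM after CGRP, against 16.3, 10.3, 11.1 and 9.39 CPM after PBS. The groups were apart at both times, by a small margin at 8 h. Ephb6 fell by 1.05 ± 0.23 on the log2 scale at 4 h (adjusted p = 0.00337), and the 8 h value was -0.55 ± 0.23 (adjusted p = 0.151). Epha3, a receptor for ephrin-A ligands (chr16:63543534-63864175, reverse strand), had 5.45, 5.61, 11.8 and 15.2 CPM after CGRP at 4 h, against 18.1, 25.2, 18.1 and 13.7 CPM after PBS. The highest CGRP library overlapped the lowest PBS library. Epha3 fell by 0.99 ± 0.28 on the log2 scale (adjusted p = 0.0185), and the call was lost without replicate 1 or 2 of CGRP (-0.79 and -0.81, adjusted p = 0.0611 and 0.0588) or replicate 2 of PBS (-0.82, adjusted p = 0.0704), and with only the groups compared (-1.01, adjusted p = 0.0616). At 8 h Epha3 averaged 10.7 ± 1.92 CPM after CGRP and 14.7 ± 3.54 CPM after PBS (log2 fold change -0.47 ± 0.28, adjusted p = 0.351). The uncalled Eph genes averaged 26.6 CPM (Ephb4), 22.1 CPM (Ephb3), 6.52 CPM (Ephb2), 5.89 CPM (Epha1) and 2.15 CPM (Epha7) over the 16 libraries. Epha1 and Ephb2 lay just outside the threshold at 4 h, in opposite directions and each without overlap: Epha1 had a log2 fold change of 0.75 ± 0.26 (adjusted p = 0.0502) and Ephb2 of -0.93 ± 0.33 (adjusted p = 0.0594).

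Of the netrin and Slit receptor genes, Unc5b fell at 4 h and Robo2 at 8 h, and both averaged under 10 CPM. Unc5b, a repulsive netrin receptor (chr10:60762593-60831581, reverse strand), had 3.63, 1.952, 4.51 and 2.29 CPM after CGRP at 4 h, against 11.1, 9.49, 5.39 and 4.15 CPM after PBS. Unc5b at 8 h had 10.8, 11.1, 8.58 and 5.08 CPM after CGRP, against 9.03, 11.9, 14.1 and 12.3 CPM after PBS. The 4 h groups met only at 4.51 and 4.15 CPM, and the 8 h groups overlapped. Unc5b fell by 1.26 ± 0.33 on the log2 scale at 4 h (adjusted p = 0.0106), a call held without any single library, and the 8 h value was -0.40 ± 0.30 (adjusted p = 0.471). Robo2, a Slit receptor (chr16:73891839-74411825, reverse strand), had 0.824, 3.66, 3.20 and 1.85 CPM after CGRP at 8 h, against 6.36, 4.23, 7.28 and 7.38 CPM after PBS. It fell by 1.39 ± 0.37 on the log2 scale at 8 h (adjusted p = 0.0217), and at 4 h, with 2.46 ± 0.510 CPM after CGRP and 3.35 ± 1.11 CPM after PBS (SD, n = 4 each), the value was -0.43 ± 0.38 (adjusted p = 0.509). The 8 h groups were apart, but the call was lost without replicate 1 or 4 of CGRP (-1.10 and -1.30, adjusted p = 0.0755 and 0.0675), without replicate 3 or 4 of PBS (-1.32 and -1.30, adjusted p = 0.0588 and 0.0691), without the 4 libraries with most genes (-1.26, adjusted p = 0.196) and without the 3 rich in Gm10800 (-1.61, adjusted p = 0.187). Robo1 averaged 25.6 CPM and Unc5a 3.02 CPM over the 16 libraries, and neither was called.

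**Figure D4:**
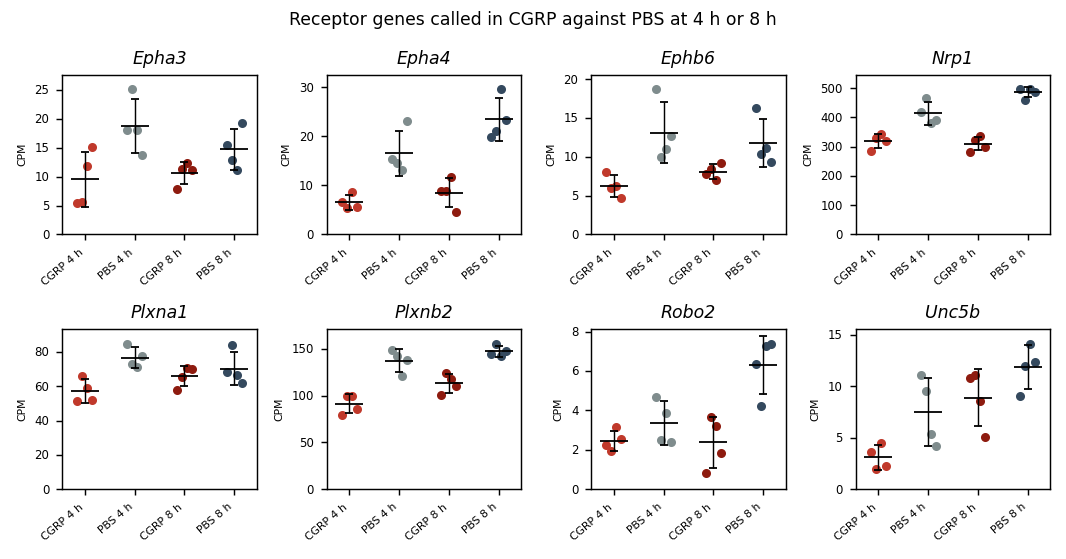
CPM of the 8 receptor genes called in CGRP against PBS at 4 h or 8 h, 1 point per library, with the mean and SD of each group of 4. In Nrp1 the CGRP libraries lie at 283 to 344 CPM and the PBS libraries at 381 to 496 CPM, and in Epha4 the CGRP libraries lie at 4.62 to 11.7 CPM and the PBS libraries at 13.1 to 29.6 CPM.

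Counted by overlap alone, 11 genes had every CGRP library below every PBS library at 4 h, 3 the opposite, and at 8 h the counts were 7 and 0. Over all genes these shares were 9.23% lower and 9.19% higher at 4 h, and 6.5% lower and 8.1% higher at 8 h. Calls differed in how much they leaned on single libraries. At 4 h Epha4, Ephb6, Nrp1, Ntn1, Plxna1, Plxnb2, Sema5a and Unc5b stayed called whichever library of the comparison was left out, and at 8 h Epha4, Nrp1 and Sema5a did.

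**Figure D5:**
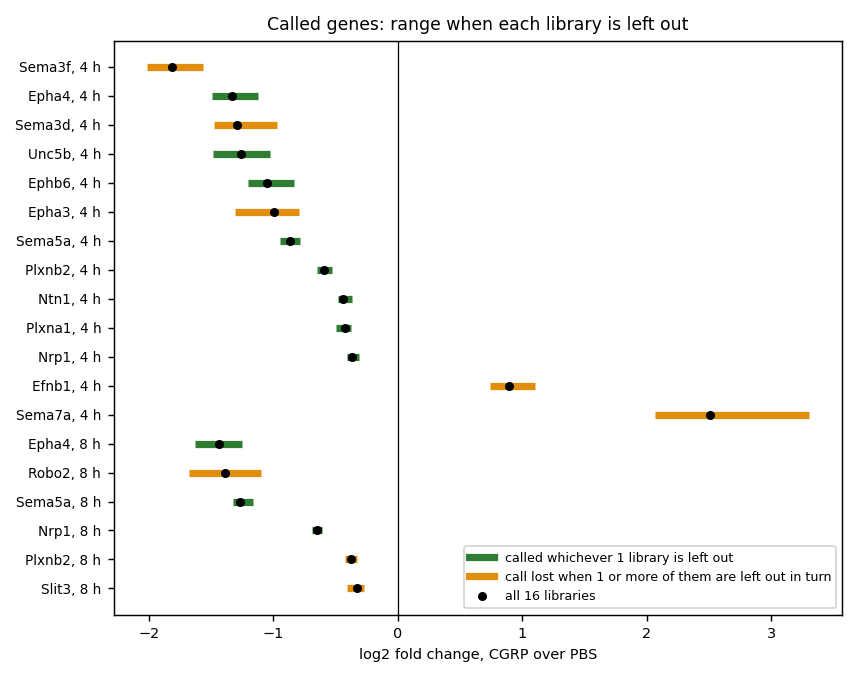
Log2 fold change of CGRP over PBS for each called gene and time. The dot is the value from all 16 libraries and the bar the range when each library of the comparison is left out in turn, in green where the call held each time and in orange where it was lost at least once. No bar crosses 0.

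Whether the effect of CGRP differed between the times was tested directly, as the 8 h effect minus the 4 h effect. None of the 48 genes passed with edgeR or with DESeq2, beside 1.03% of all genes with edgeR (0.618% higher and 0.407% lower). An unadjusted p under 0.05 was found for 6 of the 48 (Slit3, Plxnd1, Nrp1, Efna5, Plxna1 and Sema5a). Over all genes 2003 of 14236 had such a p, so the 6 of 48 lay near the background. Calls made at 4 h alone or 8 h alone above are therefore not shown to differ between the times.

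Time itself was read within each treatment, as 8 h against 4 h. After PBS, 0 of the 48 genes were called with edgeR or DESeq2, beside 0.499% of all genes with edgeR. At an unadjusted p under 0.05 there were 7 of the 48, beside 1832 of all 14236 genes, near the background. Sema3f was the gene with every 8 h library below every 4 h library after PBS, and Ephb4 the gene with the opposite, beside 3.97% and 3.35% of all genes. After CGRP, 3 were higher and 3 lower at 8 h than at 4 h, 12.5% of the 48 beside 7.02% of all genes (4.11% higher and 2.91% lower). Without overlap 4 were higher and 3 lower, beside 6.71% and 5.47% of all genes. Other markers moved between the same libraries: after CGRP the pericyte and smooth muscle sum was 100 to 133 CPM at 8 h and 32 to 69 CPM at 4 h, with 2 of 6 tested markers called higher at 8 h, and of the 10 stromal markers 2 were called higher and 1 lower. Their part was not tested. These comparisons share their libraries with those of CGRP against PBS, so the values are given only side by side. Unc5b was higher at 8 h by a log2 fold change of 1.52 ± 0.32 (adjusted p = 0.00480), with 8.89 ± 2.77 CPM at 8 h and 3.10 ± 1.19 CPM at 4 h after CGRP, and 11.9 ± 2.11 CPM at 8 h and 7.52 ± 3.28 CPM at 4 h after PBS (SD, n = 4 each). Ntn1 was higher at 8 h after CGRP by 0.35 ± 0.09 (adjusted p = 0.0232), a call lost without replicate 3 or 4 of 4 h or replicate 3 of 8 h (0.31, 0.35 and 0.29, adjusted p = 0.0639, 0.0553 and 0.0945) and without the 4 libraries with most genes (0.32, adjusted p = 0.0864). Plxnb2 was higher by 0.31 ± 0.09 (adjusted p = 0.0436), and lost its call without replicate 1 or 4 of 4 h (0.25 and 0.28, adjusted p = 0.152 and 0.121) or replicate 2, 3 or 4 of 8 h (0.26, 0.29 and 0.33, adjusted p = 0.148, 0.109 and 0.0596). That call was also lost without the 4 libraries with most genes (0.36, adjusted p = 0.0641), with upper-quartile scaling (0.31, adjusted p = 0.0567), with no filter (0.32, adjusted p = 0.0669) and with only the groups compared (0.31, adjusted p = 0.106).

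The 3 genes lower at 8 h than at 4 h after CGRP encode ligands. Slit3 was lower by a log2 fold change of -0.46 ± 0.08 (adjusted p = 0.00148), with 195 ± 24.7 CPM at 8 h and 268 ± 10.6 CPM at 4 h, while after PBS it had 245 ± 17.4 CPM at 8 h and 256 ± 11.2 CPM at 4 h (SD, n = 4 each). Efna5, a lipid-anchored ephrin (chr17:62604184-62881317, reverse strand), had 8.45, 7.74, 9.71 and 9.86 CPM at 8 h after CGRP, against 24.9, 21.7, 15.2 and 14.8 CPM at 4 h. These groups were apart, and the log2 fold change was -1.11 ± 0.23 (adjusted p = 0.00432). After PBS it had 12.01 ± 4.49 CPM at 8 h and 15.1 ± 0.750 CPM at 4 h. Sema3b (chr9:107597674-107609229, reverse strand) had 30.7, 37.6, 51.0 and 33.0 CPM at 8 h after CGRP, against 56.2, 86.1, 70.0 and 62.1 CPM at 4 h, also apart. Its log2 fold change was -0.85 ± 0.20 (adjusted p = 0.0184), and the call was lost without replicate 2 of 4 h (-0.72, adjusted p = 0.0510) or replicate 1, 2 or 4 of 8 h (-0.75, -0.84 and -0.79, adjusted p = 0.0568, 0.0540 and 0.0524), and without the 4 libraries with most genes (-0.83, adjusted p = 0.0559).

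Genes that work beside the ligands and receptors were read from a pair of further lists. The partners (co-receptors, alternative ligands and adhesion molecules, 25 of 32 tested) had 2 called higher and 2 lower at 4 h, and 3 higher and 1 lower at 8 h, with medians of 0.25 and 0.20 beside 0.01 and -0.01 over all genes. The calls were 16% of the 25 partners at each time, beside 15.7% of all genes at 4 h, which is near the background, and 8.39% at 8 h. At 4 h the adhesion gene Nrcam rose by 1.34 ± 0.24 on the log2 scale (14.6 ± 2.76 CPM after CGRP and 5.78 ± 1.09 CPM after PBS, adjusted p = 5.31e-04) and the adenosine receptor gene Adora2b by 0.69 ± 0.20 (adjusted p = 0.0239), while Flrt3, an Unc5 ligand, fell by 0.92 ± 0.28 (adjusted p = 0.0271) and Vegfc by 0.82 ± 0.25 (adjusted p = 0.0296). At 8 h the proteoglycan gene Sdc1 rose by 1.15 ± 0.28 (adjusted p = 0.0206), the hyaluronan receptor gene Cd44 by 1.01 ± 0.26 (adjusted p = 0.0294) and the receptor kinase gene Ret by 0.36 ± 0.11 (adjusted p = 0.0342), while Flrt2, another Unc5 ligand, fell by 0.45 ± 0.12 (adjusted p = 0.0190).

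The intracellular effectors (52 of 55 tested) had 2 called higher and 9 lower at 4 h, and 3 higher and 1 lower at 8 h, with medians of -0.17 and -0.04. At 4 h 17.3% of them were called lower beside 7.72% of all genes and 3.85% higher beside 7.99%, and at 8 h 7.69% were called in either direction beside 8.39%, which is near the background. Dpysl2, which encodes the semaphorin effector CRMP2, fell at both times. It had 438 ± 48.5 CPM after CGRP and 753 ± 50.2 CPM after PBS at 4 h, and 637 ± 67.6 CPM after CGRP and 836 ± 36.8 CPM after PBS at 8 h (SD, n = 4 each), with log2 fold changes of -0.78 ± 0.09 (adjusted p = 3.43e-06) and -0.39 ± 0.09 (adjusted p = 0.00711). The adaptor gene Nck1 fell by 0.45 ± 0.09 at 4 h (adjusted p = 8.67e-04). Rnd3 and Rnd1 moved apart at 4 h: Rnd3 fell by 0.38 ± 0.09 (adjusted p = 0.00363) and Rnd1 rose by 2.19 ± 0.54 (adjusted p = 0.00799, 3.92 ± 2.96 CPM after CGRP and 0.838 ± 0.288 CPM after PBS). Rnd3 was also the effector gene whose effect differed between the times, by 0.54 ± 0.12 (adjusted p = 0.0272). At 8 h the actin-severing gene Cfl1 rose by 0.44 ± 0.10 (adjusted p = 0.00635), Cdc42 by 0.24 ± 0.07 (adjusted p = 0.0429) and the cofilin kinase gene Limk1 by 0.55 ± 0.17 (adjusted p = 0.0477).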

How the data were processed

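RNA-seq libraries of mSC from 4 groups of 4 replicates were analysed. The authors deposited unnormalised read counts for each gene; the submitters' processing notes name STAR 2.5.4, featureCounts and the build mm10. Annotation, strand setting and multi-mapping rule: not given in the sources used here. Per the labels' protocols the Nextera XT kit was used, and it keeps no strand information. All columns were used. No replicates were the same library: the chi-square of paired counts was 6.52 to 22.7 times its degrees of freedom.

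The axon guidance genes, the partner, effector and marker lists and the tests were chosen with earlier results of these data known. Genes with at least 10 reads in at least 4 libraries (14236) were fitted with edgeR 4.0.16 in R 4.3.3: TMM scaling, 1 mean per group over all 16 libraries (12 residual degrees of freedom, robust quasi-likelihood, biological coefficient of variation 17.5%), two-sided tests, Benjamini-Hochberg adjustment over all genes tested and a threshold of 0.05 with no fold limit. Rose, fell and called refer to that threshold. CPM are counts scaled to TMM-adjusted library size. The fit was also run on simulated counts with changes put in. The simulated libraries differed only in depth, in gene-level spread and in those changes. That run therefore cannot speak to the uneven libraries named above. The submitters call the replicates biological without saying that they came from separate animals, so p-values measure the spread between these samples, part of which may be technical, and the counts are PCR copies without molecular identifiers.

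Every tested axon guidance gene is named with its level, and values in each library are given for those called in CGRP against PBS; for those called in time, at most 6 in each direction. Of the partners and effectors, up to 4 called genes with the smallest p at each time are named. Replicates share numbers across groups, but no correlation between the deviations of same-numbered libraries passed 0.1 within the comparisons of groups made here. Same-numbered libraries that differ in both treatment and time were not read this way. Nothing in the labels says what a number marks, so the numbers were not used as pairs. Alternatives were DESeq2 1.42.0, upper-quartile scaling, other filters, a replicate block, only the groups compared, and libraries left out. Positions and exon lengths are from GENCODE (GRCm38), to which all 68 symbols matched, and promoters from RefSeq (GRCm38.p6).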

Additional observations from a re-analysis of the deposited data

Results flagged for a closer look

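1 value stood apart within its group of 4. Efnb1 in replicate 2 of PBS at 8 h, at 8.02 CPM, was far above the other 3 PBS libraries at 8 h, which lay at 5.09 to 5.36 CPM, with a gap of 0.906 of the group's range. The 68 groups examined were those of the 17 called axon guidance genes, each in the 4 groups of libraries. This was the 1 past Dixon's 95% critical value. Chance gives about 1 in 20, so 1 in 68 is no more than chance gives.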

How the results depend on the processing

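Of 25 called values of single axon guidance genes, 14 kept their call without any single library and 13 under every alternative, and none changed direction. Of 381 alternative values, 58 lost a call. At 4 h the genes called higher, 2 in the fit reported, were 0 with only the groups compared and 0 without the 4 libraries with most genes. At 8 h the genes called higher, 0 in the fit reported, were 1 with DESeq2, with no filter and with only the groups compared. The 6 called lower at 8 h were 3 without the 4 libraries with most genes and 2 without the 3 rich in Gm10800, and all genes called, 1195, were 192 and 149. The 3 genes higher at 8 h than at 4 h after CGRP were 1 without the 4 libraries. Over all genes, the difference between times gave 146 calls, and 435 with DESeq2, 456 with no filter and 62 without the 4 libraries. Time after PBS gave 71 calls over all genes, and 327 with DESeq2, 422 with no filter and 134 with only the groups compared. The cause was not tested.

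With each library left out in turn, the axon guidance genes called at 4 h ranged between 0 and 2 higher and 9 and 12 lower, and at 8 h between 0 and 1 higher and 3 and 8 lower. For the difference between times they were 0 higher and 0 to 1 lower (Slit3 without replicate 2 of CGRP at 8 h), for time after PBS 0 in each direction, and for time after CGRP 1 to 3 higher and 2 to 3 lower. Over all genes the calls were 1485 to 2224 at 4 h, 580 to 1284 at 8 h, 80 to 203 for the difference, 17 to 278 for time after PBS and 665 to 951 for time after CGRP.

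The correlations of the deviations of same-numbered libraries, within the comparisons of groups made here, were -0.0575 to 0.0764. None of these was over 0.1, so the numbers were not taken as pairs. However, 9 of 16 libraries correlated best with their own number, where chance among 4 numbers gives about 4, a hint of shared numbers from the data and not from the design. With the replicate block, 14 axon guidance genes were called at 4 h (3 higher and 11 lower, 12 of them among the 13 of the fit reported) and 7 at 8 h (all lower), 0 in the difference, 0 in time after PBS, and 3 higher and 3 lower in time after CGRP. Sema7a lost its call (2.48, adjusted p = 0.0530). Over all genes the block gave 2139, 1078, 154, 68 and 932 calls, within 1.5 times of those without it. Sema3f and Sema7a had 222 and 234 reads over all 16 libraries, so their values carry more counting error than those of abundant genes.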
